A study of Mus musculus with 20 samples.

Results

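The genes described here are 10 markers of disease-associated microglia: Apoe, Spp1, Lpl, Gpnmb, Itgax, Clec7a, Igf1, Cst7, Axl and Cd9. They were chosen by symbol, as named genes, and each was found by its Ensembl identifier among the 56941 identifiers of the count table. All 10 had enough reads to be among the 13755 genes tested. The libraries came from the immortalized mouse microglial cell line BV-2, either wild type or labelled as RGS10 knockout. Cells received interferon gamma (IFNγ) at 10 ng/mL or plain medium as vehicle, in both cases for 48 h. Each of the 4 groups held 5 libraries, of which 3 were labelled batch 1, 1 batch 2 and 1 batch 3. RGS10 is a regulator of G protein signalling, and the series title links it to the migration of these cells. How the knockout was made, and whether it is a single clone, is not given in the sources used here. A difference between the lines therefore cannot be told apart from one between clones. The labels call the replicates biological without giving a culture history, so the tests measure only the spread between samples, which may be technical.

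Disease-associated microglia are a state first described in mouse brain around amyloid plaques and dying neurons, where resting microglia lower their homeostatic genes and raise genes of phagocytosis, lysosomes and lipid handling. The lipid receptor TREM2 and its signalling adaptor DAP12 (gene Tyrobp) are needed for the full state. Among the 10 markers, Apoe and Lpl handle lipids, Spp1, Igf1 and Cst7 encode secreted or lysosomal proteins, Axl, Clec7a and Itgax encode surface receptors, and Gpnmb and Cd9 encode membrane proteins. IFNγ drives macrophage activation and antigen presentation.

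All 6 genes chosen as a check of IFNγ signalling, Irf1 among them, rose in both lines, with median changes of 6.63 and 6.81 log2. With IFNγ 3 of them (Ciita, Cd274 and Cxcl9) were lower in knockout cells and 0 higher, with a median of −1.04 log2. Cd274 had a smaller response in knockout cells, at −1.63 ± 0.40 log2. In batches 2 and 3 alone 0 of the 6 responses differed between the lines, beside 121 of 14288 genes. Library totals ran from 15866749 to 29157740 counts. Rgs10 was read in every library: under vehicle it stood at 55.1 to 73.0 CPM (counts scaled to library size) in wild-type and 22.6 to 34.6 CPM in knockout libraries, and with IFNγ at 22.2 to 50.0 and 15.5 to 50.5 CPM. The vehicle libraries had Rgs10 means of 63.0 ± 6.62 and 28.2 ± 4.56 CPM (SD, n = 5). The libraries labelled knockout thus kept Rgs10 reads, and with IFNγ the ranges of the lines overlapped. Where a deletion lies is unknown here, and these reads do not check the label. Below, knockout cells means the libraries so labelled. All 9 defining genes of microglia and macrophages were tested, and their summed level was 2081 to 5286 CPM over the 20 libraries. Under vehicle 3 of the 9 (Aif1, Csf1r and Fcgr1) were lower in knockout cells, and with IFNγ 5 were, beside 0 higher in either. Of all genes 14.8% and 19.0% were lower. The part of the 9 in the results for the markers was not tested. Summed markers of fibroblasts reached at most 0.875 CPM, of astrocytes 1.12, of T cells 9.21, of neurons 24.9, of neutrophils 34.8 and of oligodendrocytes 62.9 CPM. Of these types other than neurons, some defining genes were at 0 in all libraries, namely Col3a1 and Lum, Aqp4 and Gja1, Cd3g and Cd8a, S100a9 and Mog. Among markers of these types that had enough reads to test, Map2, Tubb3, Mbp, Lck and S100a8 were lower in knockout cells under vehicle, as were several of the markers described here, and their part in those results was not tested. Of 16 homeostatic microglia genes 14 were tested, and Sall1, a microglial identity factor in the brain, had no read. In such bulk RNA fewer cells with a transcript and less of it per cell cannot be told apart. Signs of library quality moved with IFNγ, most in batches 2 and 3. The nuclear RNA Malat1 stood at 1143 to 2389 CPM in the 4 IFNγ libraries of those batches and at 48.2 to 152.1 CPM in the 10 vehicle libraries. In batch 1 it was 337.7 to 370.1 CPM with IFNγ against 63.8 to 81.5 CPM under vehicle in wild-type cells, and 53.2 to 59.4 against 48.2 to 67.5 CPM in knockout cells. Of 8 genes listed for RNA quality mt-Cytb, mt-Co1 and Neat1 were lower and Rpl3 higher in knockout cells with IFNγ. The TMM scaling factors of the 4 IFNγ libraries of batches 2 and 3 were 0.635 to 0.892 against 1.01 to 1.12 in the other 16. The part of these signs in the results below was not tested, and the IFNγ response of each marker is therefore given by batch as well.

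Values are listed below in the order of the 3 libraries of batch 1, then batch 2, then batch 3, as CPM on TMM-scaled library totals. Differences are log2 changes ± SE from edgeR's quasi-likelihood fit with a batch term. The words "rose", "fell", "higher" and "lower" are used of genes with a p under 0.05 after Benjamini-Hochberg adjustment over all those tested. Fits of batches 2 and 3 alone hold 1 library of each batch per group and called fewer genes in every comparison. Under vehicle they called 847 genes between the lines, against 3753 in the reported fit. A change that did not pass there was therefore not shown to be absent in those batches.

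The lines differed in most markers before any treatment, and each difference that passed the test was a lower level in knockout cells. Under vehicle 6 of 10 markers were lower in knockout cells (Apoe, Spp1, Axl, Igf1, Itgax and Clec7a) and 0 were higher, where 14.8% of all genes tested were lower, 12.5% higher and 27.3% either. The median change of the 10 was −1.03 log2 against 0.03 for all genes. With IFNγ 7 were lower (Apoe, Igf1, Clec7a, Axl, Gpnmb, Spp1 and Cd9) and 0 higher, beside 19.0%, 20% and 39.0% of all genes, with a median of −1.28 against 0.01. At an unadjusted p under 0.05 too, 0 markers were higher in edgeR's fit under either treatment. The lowest wild-type library lay above the highest knockout library for 6 of 10 markers under vehicle and 4 of 10 with IFNγ, where 24.9% and 15.1% of all genes had groups that did not overlap. In batch 1 alone 9 markers were lower and 0 higher under vehicle, beside 4146 lower and 3926 higher of 13833 genes tested. With IFNγ 8 were lower and 2 higher in that batch, beside 4632 and 4948 genes. In batches 2 and 3 alone 5 were lower and 0 higher under vehicle, beside 633 and 214 of 14288 genes. With IFNγ 7 were lower and 0 higher in those batches, beside 1008 and 912 genes. The difference had the same sign in all 3 batches for 8 and 7 markers, against 57.2% and 47.0% of all genes.

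IFNγ split the markers in both lines. In wild-type cells 4 of 10 rose (Clec7a, Gpnmb, Itgax and Cd9) and 2 fell (Apoe and Igf1), while 29.0% of all genes rose, 29.9% fell and 58.9% did either, so the share of markers that moved was close to that of all genes. These counts changed with the batch. In batch 1 alone 3 markers rose and 4 fell, beside 5168 and 5074 of 13833 genes tested. In batches 2 and 3 alone 7 rose and 1 fell, beside 2444 and 2657 of 14288 genes. In knockout cells 5 rose (Clec7a, Itgax, Gpnmb, Spp1 and Axl) and 2 fell (Igf1 and Apoe), beside 21.4%, 21.8% and 43.2% of all genes. In batch 1 alone 5 rose and 4 fell, beside 3888 and 3935 of 13833 genes. In batches 2 and 3 alone 4 rose and 2 fell, beside 2185 and 2081 of 14288 genes. Median changes were 0.27 and 1.05 log2 for the markers and 0.01 and −0.02 for all genes. Groups did not overlap for 4 markers in wild-type and 6 in knockout cells (36.2% and 27.6% of all genes), and the sign was shared by all 3 batches for 6 and 7 (62.8% and 60.0%). The response itself differed between the lines for 2 markers, Spp1 with the larger and Gpnmb with the smaller response in knockout cells, where 6.50% of all genes differed, 3.64% upwards and 2.86% downwards. The sign of that difference was shared by the batches for 4 markers and 31.0% of all genes. Neither the Spp1 nor the Gpnmb call held in every alternative fit.

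**Figure D1:**
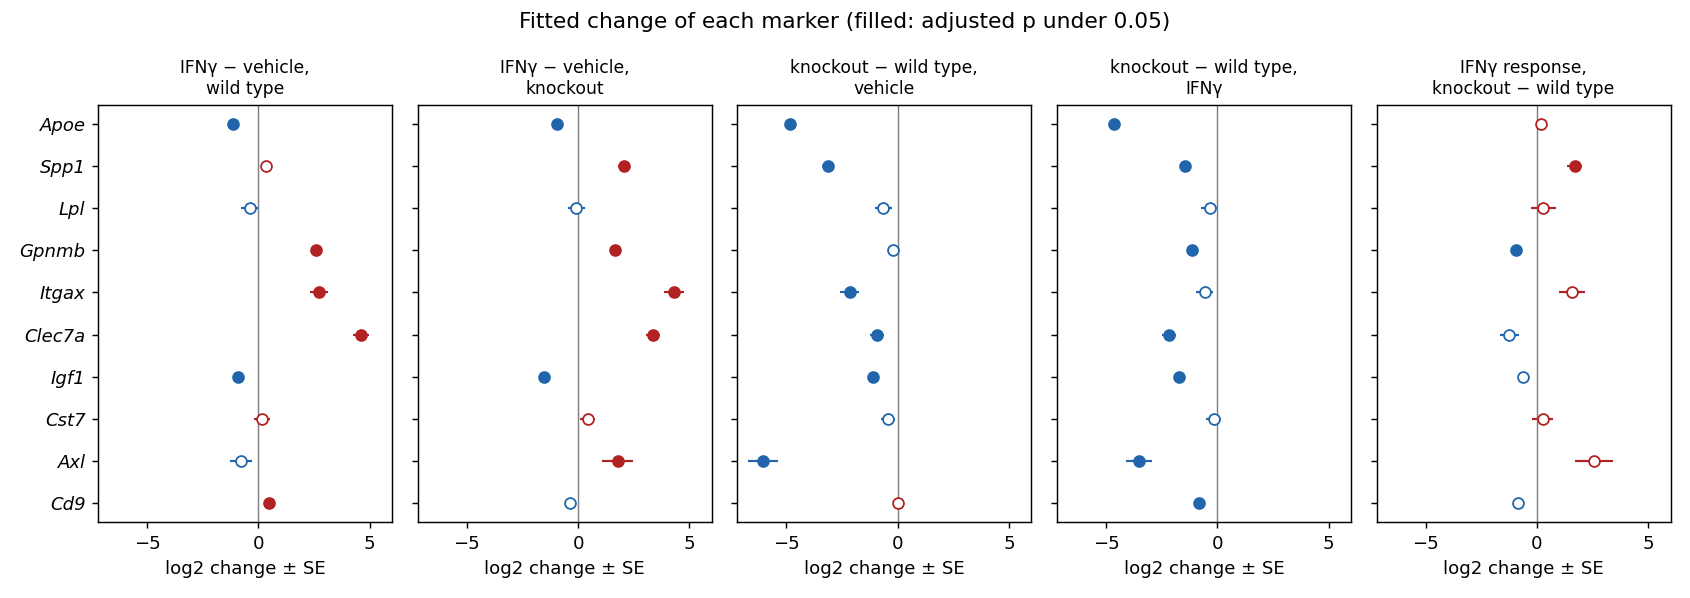
Fitted log2 change (horizontal axis, with SE bars) of each of the 10 markers in the 5 comparisons, 1 panel each. Filled points passed an adjusted p of 0.05. In the 2 panels of knockout against wild type the filled points, 6 under vehicle and 7 with IFNγ, all lie left of 0.

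The 250 bases before the transcription start were read for 9 of the 10 markers, in 13 windows from RefSeq on GRCm38.p6, and searched on both strands for the motifs GAS (TTCNNNGAA), ISRE, PU.1 (GAGGAAGT), CLEAR (TCACGTG), M-box (TCATGTG) and AP-1 (TGANTCA). Of all 32851 RefSeq windows of that length 7.02%, 2.98%, 2.44%, 3.13%, 3.25% and 6.75% held them. Matches lay in 3 windows, of Spp1, Itgax and Igf1, and in none of those of Apoe, Axl and Clec7a, the other markers that were lower in knockout cells under vehicle. The 3 windows are shown 5′ to 3′ on the gene's strand with the matches in capitals. In the Spp1 window, chr5:104434861-104435110 on the plus strand, the capitals mark an ISRE on the opposite strand that begins 157 bases before the start and a PU.1 motif at 113 bases. The Itgax window, chr7:128129300-128129549 (plus), has an AP-1 motif at 56 bases, and the Igf1 window, chr10:87860861-87861110 (plus), an AP-1 motif at 37 bases. A match is a description of the letters and not of a bound site.
Spp1: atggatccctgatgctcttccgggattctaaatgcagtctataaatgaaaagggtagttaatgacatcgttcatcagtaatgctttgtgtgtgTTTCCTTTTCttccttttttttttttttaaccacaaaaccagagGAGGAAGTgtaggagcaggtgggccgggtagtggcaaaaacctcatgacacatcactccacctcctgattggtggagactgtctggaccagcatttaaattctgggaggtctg
Itgax: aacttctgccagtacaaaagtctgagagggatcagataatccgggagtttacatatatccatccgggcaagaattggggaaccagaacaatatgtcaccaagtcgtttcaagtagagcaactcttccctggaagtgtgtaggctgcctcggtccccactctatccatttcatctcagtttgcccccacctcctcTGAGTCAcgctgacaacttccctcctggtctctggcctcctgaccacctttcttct
Igf1: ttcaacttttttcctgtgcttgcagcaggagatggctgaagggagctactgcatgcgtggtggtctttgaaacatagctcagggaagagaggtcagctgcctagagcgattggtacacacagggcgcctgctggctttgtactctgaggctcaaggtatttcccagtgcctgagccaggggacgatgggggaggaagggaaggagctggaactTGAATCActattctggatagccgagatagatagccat

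Apoe (ENSMUSG00000002985), the apolipoprotein that carries cholesterol out of microglia and astrocytes, was 28.2-fold lower in knockout cells under vehicle and lay lower in every knockout library than in any wild-type library. Under vehicle wild-type libraries held 1497, 1336, 1801, 2233 and 2495 CPM, and knockout libraries 53.5, 50.2, 59.3, 79.2 and 90.0 CPM. The knockout group mean was thus 3.55% of the wild-type one. The change was −4.82 ± 0.20 log2 (adjusted p = 1.8e-12), with −4.82, −4.82 and −4.79 in batches 1, 2 and 3. With IFNγ wild-type libraries held 559.8, 579.6, 640.5, 1737 and 955.5 CPM and knockout libraries 33.1, 29.6, 28.2, 34.7 and 42.5 CPM. Both lines were lower with IFNγ than without, and the difference between them was −4.62 ± 0.20 log2 (adjusted p = 3.7e-12). With IFNγ Apoe changed by −1.14 ± 0.17 log2 in wild-type (adjusted p = 1.2e-05) and −0.95 ± 0.17 log2 in knockout cells (adjusted p = 2e-04). By batch the change was −1.37, −0.36 and −1.38 in wild-type and −0.84, −1.19 and −1.08 in knockout cells. The wild-type library of batch 2 overlapped the vehicle group, and in batches 2 and 3 alone the wild-type fall was −0.82 log2 and did not pass (adjusted p = 0.075). The lines' responses differed by 0.19 ± 0.24 log2 (adjusted p = 0.69).

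Genes that work with Apoe moved in both directions. Of 16 tested genes of lipid handling, 5 were lower and 2 higher in knockout cells under vehicle, and 8 were lower and 2 higher with IFNγ. Nr1h3, the liver X receptor that turns on Apoe and cholesterol export genes, was lower under vehicle, at −1.04 ± 0.18 log2 (17.3 ± 7.71 against 7.81 ± 1.24 CPM, SD, n = 5) and its partner Rxra at −0.91 ± 0.16 log2. In contrast the cholesterol exporters Abca1 and Abcg1, also liver X receptor targets, were higher by 0.72 ± 0.16 and 0.33 ± 0.12 log2. The fatty acid receptor Cd36 was lower, at −3.31 ± 0.27 log2 (adjusted p = 0.0015 or less for each of these, except 0.045 for Abcg1). IFNγ raised 11 and lowered 4 of the 16 genes in wild-type cells and raised 6 and lowered 2 in knockout cells. It raised 29.0% and lowered 29.9% of all genes in wild-type and 21.4% and 21.8% in knockout cells. Cd36 rose by 3.37 ± 0.26 and 4.95 ± 0.29 log2. Apoc1, Apoc2 and Apoc4, which lie next to Apoe in the mouse genome, were not tested for want of reads. The line differences of Nr1h3, Rxra, Abca1 and Abcg1 under vehicle did not pass in batches 2 and 3 alone (−0.41, −0.93, 0.43 and 0.20 log2).

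Lpl (ENSMUSG00000015568), the lipase that frees fatty acids from lipoproteins, was the marker whose change with IFNγ in wild-type cells differed most between batches. Wild-type vehicle libraries held 3981, 4388, 3884, 1316 and 1404 CPM and wild-type IFNγ libraries 1279, 1330, 1293, 5477 and 1895 CPM. In batch 1 the IFNγ libraries were all below the vehicle ones, in batches 2 and 3 they were above. The differences by batch were −1.65, 2.06 and 0.43 log2, and their pooled value was −0.36 ± 0.40 log2 (adjusted p = 0.45). Batch 1 alone gave −1.66 log2 (adjusted p = 9.1e-22) and batches 2 and 3 alone 1.33 log2 (adjusted p = 0.021). Without the wild-type IFNγ library of batch 2 (replicate 4) the value was −1.0 log2 and passed (adjusted p = 0.0025). Knockout cells held 2282, 2300, 2266, 1385 and 1219 CPM under vehicle and 1928, 2068, 2087, 1455 and 1347 CPM with IFNγ, within 0.17 log2 of each other in every batch (−0.17, 0.07 and 0.14). The lines differed by −0.64 ± 0.38 log2 under vehicle (adjusted p = 0.23), but in batch 1 alone, where wild-type libraries were the highest of that batch, by −0.85 log2 (adjusted p = 7.2e-15). With IFNγ the same contrast was 0.67 log2 in batch 1 alone (adjusted p = 5.5e-13) and −1.32 log2 in batches 2 and 3 alone (adjusted p = 0.044), with −0.35 ± 0.39 log2 in the pooled fit (adjusted p = 0.51). The difference of responses was 0.29 ± 0.55 log2 (adjusted p = 0.82).

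Of 9 tested genes of lipase maturation and lipid storage 4 rose and 1 fell with IFNγ in wild-type cells, and 5 rose and 1 fell in knockout cells. Of all genes 29.0% rose and 29.9% fell in wild-type cells (58.9% either), and 21.4% and 21.8% in knockout cells (43.2% either). The lipid droplet coat gene Plin2 rose by 3.15 ± 0.23 log2 in wild-type cells, from 116.1 ± 9.33 to 1109 ± 578.6 CPM (SD, n = 5), and by 0.59 ± 0.21 log2 in knockout cells, from 121.2 ± 6.64 to 187.4 ± 38.2 CPM. That difference of responses was −2.57 ± 0.30 log2 (adjusted p = 6.6e-05), with −2.55, −1.73 and −3.07 by batch. Neither this difference (−2.62 log2, adjusted p = 0.11) nor the knockout rise (0.45 log2, adjusted p = 0.49) passed in batches 2 and 3 alone. Dgat1 and Dgat2, which make triglycerides, changed in opposite directions in both lines, by 1.01 ± 0.12 and −2.22 ± 0.28 log2 in wild-type and 0.59 ± 0.12 and −1.45 ± 0.28 log2 in knockout cells, where the rise of Dgat1 did not pass in batches 2 and 3 alone (0.71 log2, adjusted p = 0.066). Gpihbp1, which anchors Lpl on capillaries, had no read in any library.

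Spp1 (ENSMUSG00000029304) encodes osteopontin, a secreted adhesion protein and cytokine. Under vehicle it was 8.79-fold lower in knockout cells, at 857.2, 771.9, 716.7, 1304 and 1517 CPM against 7241, 7040, 6660, 10601 and 13322 CPM in wild-type cells. The groups did not overlap, and the change was −3.14 ± 0.26 log2 (adjusted p = 1.8e-08), with −3.16, −3.02 and −3.13 by batch. With IFNγ wild-type libraries held 7059, 6785, 6388, 26190 and 22900 CPM and knockout libraries 2127, 2037, 2260, 9401 and 11644 CPM. The 2 knockout libraries of batches 2 and 3 lay above the 3 wild-type libraries of batch 1, so these groups overlapped, while within each batch the knockout library was lower. The difference with IFNγ was −1.44 ± 0.24 log2 (adjusted p = 9.7e-05), and without the batch term it was −1.34 log2 and did not pass (adjusted p = 0.064). Spp1 rose with IFNγ in knockout cells by 2.06 ± 0.25 log2 (adjusted p = 2.9e-06), with 1.46, 2.85 and 2.94 by batch, and stood at 0.36 ± 0.24 log2 in wild-type cells (adjusted p = 0.20), with −0.05, 1.30 and 0.78. It rose in wild-type cells too in batches 2 and 3 alone (1.06 log2, adjusted p = 0.03). The response of knockout cells was larger by 1.69 ± 0.34 log2 (adjusted p = 0.0053), in all 3 batches (1.51, 1.54 and 2.16). That call was lost without the batch term (1.78 log2, adjusted p = 0.29) and in batches 2 and 3 alone (1.82 log2, adjusted p = 0.13).

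Of 9 tested receptors of osteopontin 2 were higher and 4 lower in knockout cells under vehicle, beside 12.5% and 14.8% of all genes. The hyaluronan and osteopontin receptor Cd44 was higher by 0.54 ± 0.11 log2 (214.6 ± 23.8 against 313.2 ± 46.2 CPM, SD, n = 5), and integrin β5 (Itgb5) was lower, at −1.64 ± 0.23 log2 and integrin αv (Itgav) at −0.49 ± 0.15 log2. Itga9, the integrin α9 chain, stood at 19.5 ± 3.18 CPM in wild-type cells and had no read in the 5 knockout vehicle libraries, which allows up to 0.108 to 0.129 CPM in each (3 counts per library). With IFNγ integrin α4 (Itga4) fell, at −2.61 ± 0.20 log2 in wild-type and −1.40 ± 0.19 log2 in knockout cells, and integrin α5 (Itga5) rose by 2.46 ± 0.21 and 1.36 ± 0.21 log2. Itga4 and Itga5 were also the 2 receptors whose response differed between the lines (6.50% of all genes), by 1.21 ± 0.27 and −1.11 ± 0.29 log2. These differences (0.71 and −0.69 log2) and those of Cd44 and Itgav under vehicle (0.42 and −0.91 log2) did not pass in batches 2 and 3 alone.

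Igf1 (ENSMUSG00000020053), an insulin-like growth factor that microglia release in development and in disease, was lower in knockout cells and fell with IFNγ in both lines. Wild-type libraries held 334.3, 365.1, 312.6, 180.8 and 195.7 CPM under vehicle and 158.8, 163.7, 156.0, 159.8 and 95.1 CPM with IFNγ. Knockout libraries held 122.2, 125.5, 133.5, 120.9 and 115.0 CPM under vehicle and 46.3, 43.6, 48.5, 49.9 and 30.7 CPM with IFNγ. No group overlapped the one it was compared with, and the wild-type vehicle libraries of batch 1 were the highest. The knockout differences were −1.13 ± 0.14 log2 under vehicle (adjusted p = 4.1e-06) and −1.74 ± 0.14 log2 with IFNγ (adjusted p = 2.1e-08). IFNγ changed Igf1 by −0.91 ± 0.14 log2 in wild-type (adjusted p = 1.6e-05) and −1.52 ± 0.14 log2 in knockout cells (adjusted p = 1e-07), with −1.08, −0.18 and −1.04, and −1.46, −1.28 and −1.90, by batch. In batches 2 and 3 alone the wild-type fall (−0.61 log2, adjusted p = 0.10) and the knockout difference under vehicle (−0.68 log2, adjusted p = 0.18) did not pass. The difference of the responses, −0.61 ± 0.20 log2, missed the threshold (adjusted p = 0.071) and had the same sign in each batch.

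Of 7 tested genes of the insulin-like growth factor axis 1 was higher and 4 were lower in knockout cells under vehicle. Of all genes 12.5% were higher and 14.8% lower. Igf2r, the receptor that clears IGF2 and sorts lysosomal enzymes, was lower, at −4.24 ± 0.23 log2 (109.7 ± 30.0 against 5.73 ± 0.43 CPM, SD, n = 5; adjusted p = 5.9e-11). The binding protein Igfbp4 was lower, at −1.40 ± 0.29 log2, the adaptor Irs2 was lower, at −1.13 ± 0.28 log2, and stanniocalcin 2 (Stc2), an inhibitor of binding protein cleavage, was higher by 1.63 ± 0.29 log2. The receptor Igf1r did not pass between the lines (0.12 ± 0.15 log2, adjusted p = 0.58). With IFNγ Igfbp4 fell, at −4.71 ± 0.34 log2 in wild-type and −3.00 ± 0.32 log2 in knockout cells. The line difference of Igfbp4 under vehicle did not pass in batches 2 and 3 alone (−0.98 log2, adjusted p = 0.057).

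Cst7 (ENSMUSG00000068129) encodes cystatin F, an inhibitor of lysosomal cathepsins, and passed the test in none of the 5 comparisons. Wild-type libraries held 56.4, 48.9, 51.3, 52.0 and 75.2 CPM under vehicle and 26.9, 31.7, 31.4, 192.8 and 105.1 CPM with IFNγ. As for Lpl, the IFNγ libraries lay below the vehicle ones in batch 1 and above them in batches 2 and 3. The differences were −0.80, 1.89 and 0.48 log2 by batch, and the pooled value of 0.17 ± 0.35 log2 (adjusted p = 0.69) turned to −0.13 log2 with plain library totals. Batch 1 alone gave −0.81 log2 (adjusted p = 1.1e-08) and batches 2 and 3 alone 1.30 log2 (adjusted p = 0.014). Knockout libraries held 43.6, 41.5, 38.9, 30.9 and 50.5 CPM under vehicle and 54.5, 42.4, 43.0, 56.8 and 102.0 CPM with IFNγ, a change of 0.43 ± 0.34 log2 (adjusted p = 0.31), with 0.17, 0.88 and 1.01 by batch. The lines differed by −0.43 ± 0.33 log2 under vehicle (adjusted p = 0.38), and their responses by 0.26 ± 0.48 log2 (adjusted p = 0.81). With IFNγ the difference was −0.17 ± 0.34 log2 (adjusted p = 0.73), which turned to 0.06 log2 with plain library totals and 0.66 log2 in batch 1 alone (adjusted p = 3.8e-07).

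Of 9 tested cathepsins, which cystatins inhibit, and other cystatins 8 rose with IFNγ in wild-type cells and 6 in knockout cells, and 0 fell in either. Of all genes 29.0% and 21.4% rose, and 29.9% and 21.8% fell. Cathepsin C (Ctsc), an enzyme that cystatin F inhibits, rose by 2.31 ± 0.29 and 2.62 ± 0.29 log2, from 443.7 ± 208.1 to 2023 ± 538.9 CPM and from 302.5 ± 71.9 to 1813 ± 433.7 CPM (SD, n = 5). Cathepsin S (Ctss) rose by 2.03 ± 0.19 and 1.60 ± 0.19 log2 and cathepsin H (Ctsh) by 3.06 ± 0.28 and 3.11 ± 0.29 log2. Between the lines Ctsh was lower in knockout cells, at −4.13 ± 0.30 log2 under vehicle, 102.3 ± 25.9 against 5.61 ± 0.95 CPM, and −4.07 ± 0.30 log2 with IFNγ (adjusted p = 4.9e-09 or less). Legumain (Lgmn) was lower, at −1.23 ± 0.30 and −2.09 ± 0.31 log2, and Ctsc did not pass (−0.51 ± 0.27 and −0.20 ± 0.27 log2, adjusted p = 0.17 and 0.59).

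Axl (ENSMUSG00000002602), a receptor kinase that binds Gas6 on dying cells, had few reads in knockout libraries. Under vehicle wild-type libraries held 9.2, 8.52, 9.09, 36.5 and 63.5 CPM and knockout libraries 0.144, 0.161, 0.431, 0.467 and 0.364 CPM. The knockout values stood for 4 to 12 reads per library, against 171 to 1133 reads in wild-type cells. The change was −6.06 ± 0.67 log2, or 66.9-fold (adjusted p = 1.1e-06), with −4.85, −6.04 and −7.13 by batch. With IFNγ wild-type libraries held 8.77, 10.2, 9.95, 17.7 and 13.8 CPM and knockout libraries 0.895, 1.94, 0.942, 0.0 and 0.64 CPM. The knockout library of batch 2 had 0 reads, which allows up to 0.170 CPM (3 counts, counting error only), and the other 4 had 11 to 55. The lines differed by −3.51 ± 0.57 log2 (adjusted p = 8.1e-05), a value that became −4.14 log2 without knockout IFNγ replicate 2, whose 55 reads were the most of its group. The rise of Axl with IFNγ in knockout cells was 1.78 ± 0.70 log2 (adjusted p = 0.046), with 2.03, −2.64 and 0.69 by batch. It was lost in 15 of the 20 fits that left out 1 library (1.16 log2 without that library) and turned to −0.48 log2 in batches 2 and 3 alone. In wild-type cells the change was −0.77 ± 0.50 log2 (adjusted p = 0.20), with 0.11, −1.04 and −2.20 by batch: batch 1 was level and the high vehicle values of batches 2 and 3 were not seen with IFNγ. This fall passed in batches 2 and 3 alone (−1.58 log2, adjusted p = 0.031) and with no filter beyond 1 read (−0.82 log2, adjusted p = 0.003). The difference of responses was 2.55 ± 0.85 log2 (adjusted p = 0.079), with 1.92, −1.60 and 2.88 by batch.

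Mertk, a receptor of the same family, was lower in knockout cells, at −3.34 ± 0.34 log2 under vehicle (21.2 ± 5.68 against 1.95 ± 0.68 CPM, SD, n = 5; adjusted p = 2.7e-07) and −2.19 ± 0.31 log2 with IFNγ, and it rose with IFNγ by 1.36 ± 0.30 log2 in wild-type and 2.52 ± 0.33 log2 in knockout cells. Tyro3, the remaining receptor, stood at 0.0455 to 1.63 CPM in group means and was higher in knockout cells, by 2.50 ± 0.76 log2 under vehicle, where the wild-type group held 4 reads in all. The ligand Pros1 fell in wild-type cells (−0.94 ± 0.32 log2) and was at 0.57 ± 0.30 log2 in knockout cells (adjusted p = 0.13), with a difference of responses of 1.51 ± 0.43 log2 (adjusted p = 0.042). The ligand Gas6 had a mean of at most 0.21 CPM and was not tested. Of 6 tested genes of these receptors, their ligands and their targets, Lgals3, Socs1 and Socs3 among them, 5 rose and 1 fell with IFNγ in wild-type cells, and 5 rose in knockout cells. Of all genes 29.0% rose and 29.9% fell in wild-type cells, and 21.4% rose in knockout cells. With batches 2 and 3 alone the fall of Pros1 (0.26 log2), its difference of responses (0.50 log2) and the line difference of Tyro3 under vehicle (0.82 log2) did not pass.

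Clec7a (ENSMUSG00000079293) encodes dectin-1, the receptor of fungal β-glucans, and had the largest rise with IFNγ of the 10 markers in wild-type cells. Wild-type libraries went from 42.4, 51.9, 50.4, 44.9 and 67.8 CPM under vehicle to 863.8, 833.8, 776.7, 2182 and 1873 CPM with IFNγ, and knockout libraries from 28.6, 32.5, 30.1, 19.9 and 16.1 to 203.7, 215.4, 231.7, 219.7 and 604.8 CPM. Neither pair of groups overlapped, and within each treatment the highest knockout library was under the lowest wild-type library. The rise was 4.61 ± 0.34 log2 (24.4-fold, adjusted p = 2.6e-09) in wild-type and 3.36 ± 0.32 log2 (10.3-fold, adjusted p = 1.6e-07) in knockout cells. By batch it was 4.10, 5.60 and 4.79 in wild-type and 2.83, 3.46 and 5.23 in knockout cells, and the difference of responses, −1.24 ± 0.42 log2, missed the threshold (adjusted p = 0.083). Between the lines the change was −2.17 ± 0.31 log2 with IFNγ (adjusted p = 1.6e-05). Under vehicle it was −0.93 ± 0.30 log2 (adjusted p = 0.024), a call that was lost without wild-type vehicle replicate 2 or 3 (−0.87 and −0.89 log2) or knockout vehicle replicate 4 or 5 (−0.80 and −0.68 log2).

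Dectin-1 signals through the kinase Syk, which rose with IFNγ by 1.59 ± 0.19 log2 in wild-type and 0.59 ± 0.19 log2 in knockout cells, a difference of −1.0 ± 0.26 log2 (adjusted p = 0.027). Of 9 tested genes of this pathway 6 rose in wild-type and 5 in knockout cells, and none fell. Of all genes 29.0% and 21.4% rose, and 29.9% and 21.8% fell. Clec4n, encoding dectin-2, rose by 3.67 ± 0.32 and 4.78 ± 0.36 log2, and the adaptor Fcer1g by 1.72 ± 0.20 and 0.87 ± 0.19 log2. Clec4n was lower in knockout cells under both treatments (−2.34 ± 0.35 and −1.23 ± 0.29 log2). The difference of Syk responses (−0.56 log2) and that of Clec4n with IFNγ (−1.02 log2, adjusted p = 0.066) did not pass in batches 2 and 3 alone.

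Itgax (ENSMUSG00000030789) encodes CD11c, an integrin α chain of dendritic cells and activated microglia. Under vehicle wild-type libraries held 13, 15.4, 17.2, 36.3 and 74.4 CPM and the knockout ones 5.3, 5.02, 5.17, 7.0 and 4.04 CPM. IFNγ brought it to 117.8, 119.1, 109.3, 488.5 and 162.3 CPM and 45.6, 44.4, 48.8, 378.6 and 351.8 CPM. The vehicle groups did not overlap with each other or with their IFNγ groups, while with IFNγ the knockout libraries of batches 2 and 3 reached above 4 of 5 wild-type libraries. The line difference under vehicle was −2.16 ± 0.42 log2 (adjusted p = 0.00059), with −1.53, −2.36 and −4.17 by batch. With IFNγ it was −0.57 ± 0.38 log2 (adjusted p = 0.25), with −1.32, −0.37 and 1.12 by batch, and it passed in batch 1 alone (−1.29 log2, adjusted p = 4.8e-15). Itgax rose by 2.74 ± 0.40 log2 in wild-type cells (6.69-fold, adjusted p = 1.1e-05), with 2.93, 3.75 and 1.12 by batch. In knockout cells the rise was 4.33 ± 0.45 log2 (20.1-fold, adjusted p = 4.5e-07), but 3.14 in batch 1 and 5.74 and 6.41 in batches 2 and 3, so its size depended on the batch. The difference of responses was 1.58 ± 0.57 log2 (adjusted p = 0.10).

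The β chain that pairs with Itgax, Itgb2 (CD18), rose with IFNγ by 2.64 ± 0.29 log2 in wild-type and 1.90 ± 0.29 log2 in knockout cells and was lower in knockout cells with IFNγ, at −1.34 ± 0.28 log2. Of 5 tested genes of the β2 integrins 4 rose in each line, and 0 and 1 fell. Of all genes 29.0% and 21.4% rose, and 29.9% and 21.8% fell. Itgam, which encodes the α chain CD11b, rose by 1.23 ± 0.16 and 0.63 ± 0.16 log2, and Itgal, which encodes CD11a, by 0.65 ± 0.23 and 1.73 ± 0.24 log2. The rise of Itgal in wild-type cells did not pass in batches 2 and 3 alone (0.49 log2, adjusted p = 0.38).

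Gpnmb (ENSMUSG00000029816), a membrane glycoprotein of lysosomes and the cell surface, rose with IFNγ in both lines. The wild-type vehicle group held 2679, 2812, 2833, 5146 and 5500 CPM, and the knockout vehicle group 2599, 2648, 2570, 4395 and 3603 CPM. With IFNγ they held 14688, 14593, 14003, 50035 and 30062 CPM and 6349, 6343, 6487, 16576 and 21053 CPM. In both lines every IFNγ library was above every vehicle library, and the libraries of batches 2 and 3 were the highest of each group. The rise was 2.59 ± 0.20 log2 in wild-type (6.01-fold, adjusted p = 2.9e-09) and 1.67 ± 0.19 log2 in knockout cells (3.18-fold, adjusted p = 1.4e-06), with 2.38, 3.28 and 2.45, and 1.29, 1.92 and 2.55, by batch. The response was smaller in knockout cells, at −0.92 ± 0.26 log2 (adjusted p = 0.040), with −1.08, −1.37 and 0.10 by batch, and this call was lost in 16 of the alternative settings, 13 of which left out 1 library. Under vehicle the lines differed by −0.20 ± 0.18 log2 (adjusted p = 0.45). With IFNγ Gpnmb was lower in knockout cells, at −1.12 ± 0.19 log2 (adjusted p = 9.1e-05), a call that was lost without the batch term (−1.12 log2, adjusted p = 0.051) and in batches 2 and 3 alone (−1.08 log2, adjusted p = 0.077).

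Cd9 (ENSMUSG00000030342) is a tetraspanin that organizes membrane proteins. Wild-type libraries held 233.2, 239.2, 238.1, 334.7 and 339.3 CPM under vehicle and 254.5, 253.7, 250.8, 726.5 and 602.6 CPM with IFNγ, and knockout libraries 280.2, 254.6, 236.2, 305.9 and 273.7 CPM and 156.4, 150.5, 150.4, 341.0 and 363.0 CPM. In batch 1 the IFNγ libraries of wild-type cells lay just above the vehicle ones and those of knockout cells below them, and in batches 2 and 3 both lines were above vehicle. The wild-type rise of 0.46 ± 0.18 log2 (adjusted p = 0.031) had 0.10, 1.12 and 0.83 by batch and was lost in 9 settings. Among these were batch 1 alone (0.08 log2), plain library totals (0.21 log2) and the fits without replicate 4 or 5 of either wild-type group (0.30 to 0.41 log2). In knockout cells the change was −0.36 ± 0.18 log2 (adjusted p = 0.11), with −0.75, 0.16 and 0.41 by batch. It passed in 6 settings, among them plain library totals (−0.49 log2) and the fits without knockout vehicle replicate 4 or 5 (−0.48 and −0.50 log2). The difference of responses, −0.83 ± 0.25 log2, missed the threshold (adjusted p = 0.054), had the same sign in each batch (−0.85, −0.96 and −0.42) and passed in 10 of 31 alternatives. Between the lines Cd9 differed by 0.01 ± 0.18 log2 under vehicle (adjusted p = 0.98) and was lower in knockout cells with IFNγ, at −0.82 ± 0.18 log2 (adjusted p = 0.0012), with −0.73, −1.09 and −0.73 by batch. That call was lost without the batch term (−0.85 log2, adjusted p = 0.054).

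Of 13 other tetraspanins and partners 7 rose and 2 fell with IFNγ in wild-type and 6 rose and 2 fell in knockout cells. Of all genes 29.0% rose and 29.9% fell in wild-type cells (58.9% either), and 21.4% and 21.8% in knockout cells (43.2% either). Cd81, which shares partners with Cd9, fell, at −0.65 ± 0.16 and −1.52 ± 0.16 log2, and Cd53 rose by 1.27 ± 0.13 and 1.02 ± 0.13 log2. Ptgfrn, a direct partner of Cd9, had 26.4 ± 3.98 CPM in wild-type vehicle cells against 0.0703 ± 0.0541 CPM in the knockout vehicle group (SD, n = 5), which held 9 reads in all, a fitted change of −8.42 ± 0.34 log2 (adjusted p = 1.8e-12). The fall of Cd81 in wild-type cells did not pass in batches 2 and 3 alone (−0.56 log2, adjusted p = 0.11).

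**Figure D2:**
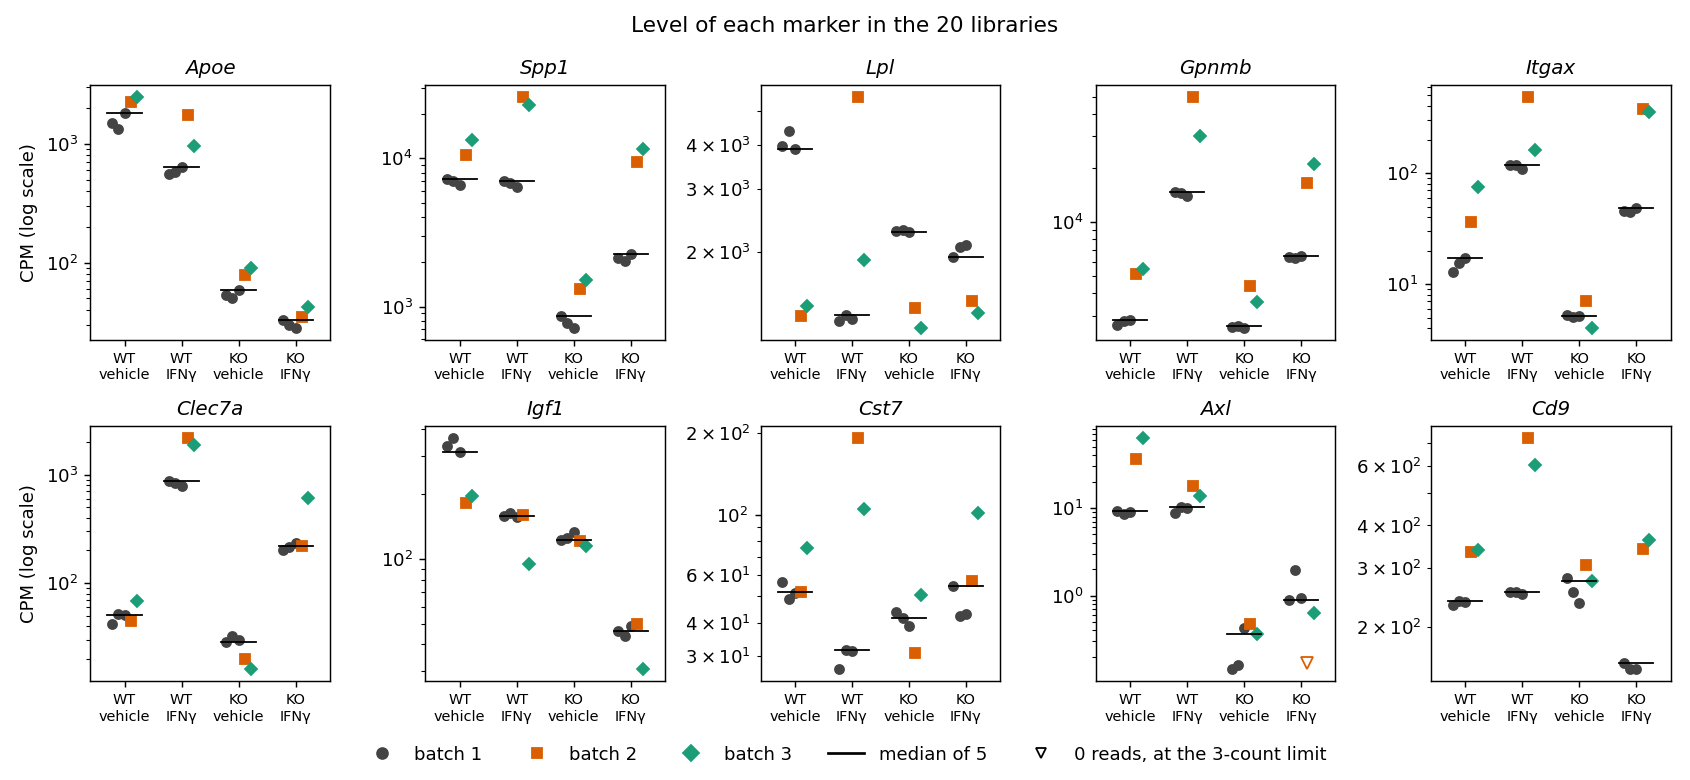
CPM of each marker (vertical axes, log scales that differ between panels) in the 4 groups, with 1 point per library, colour and shape by batch and a bar at the median of 5. The open triangle is the knockout IFNγ library of batch 2 with 0 Axl reads, drawn at 0.170 CPM. The points of batches 2 and 3 stand apart from those of batch 1 in most panels, and the Apoe panel shows knockout libraries at 28.2 to 90.0 CPM, all below the wild-type ones.

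Exact permutation tests over all splits of 5 against 5 libraries gave the smallest p they can give, 0.0079 two-sided and unadjusted, in 20 of 40 tests of 1 marker in 1 comparison. These are the 20 cases in which the groups did not overlap. Among the calls of the fit, 5 had overlapping groups and a permutation p above 0.05: Cd9 and Axl with IFNγ against vehicle (0.29 in wild-type and 0.34 in knockout cells) and Spp1, Gpnmb and Cd9 between the lines with IFNγ (0.079, 0.079 and 0.10). The fit gives each batch its own level but takes the changes as equal in all batches, and the permutation test leaves the batch out. For Cd9, Axl, Spp1 and Gpnmb the change with IFNγ in knockout cells itself differed between batches, as given next.

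Whether the response to IFNγ depended on the batch was tested for each line, as the response in batches 2 and 3 minus that in batch 1, after the values by batch had been seen. In wild-type cells 6 of 10 markers passed, beside 35.6% of all genes. Lpl differed by 2.98 ± 0.32 log2 (adjusted p = 3.1e-06), Cst7 by 2.09 ± 0.35 (adjusted p = 2e-04), Clec7a by 1.13 ± 0.34, Spp1 by 1.10 ± 0.18, Cd9 by 0.88 ± 0.14 and Axl by −1.72 ± 0.47. In knockout cells 6 passed as well, beside 29.0% of all genes: Itgax by 2.91 ± 0.49 log2 (adjusted p = 0.00028), Clec7a by 1.57 ± 0.35, Spp1 by 1.44 ± 0.18, Cd9 by 1.04 ± 0.14, Gpnmb by 0.95 ± 0.23 and Axl by −2.80 ± 0.98, the last from libraries with 0 to 55 reads. Spp1, Clec7a, Axl and Cd9 were thus called in both lines, and Apoe and Igf1 in neither. The 4 IFNγ libraries of batches 2 and 3 are also those with the high Malat1 and low scaling factors given above, and the part of these in the batch differences was not tested.

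**Figure D3:**
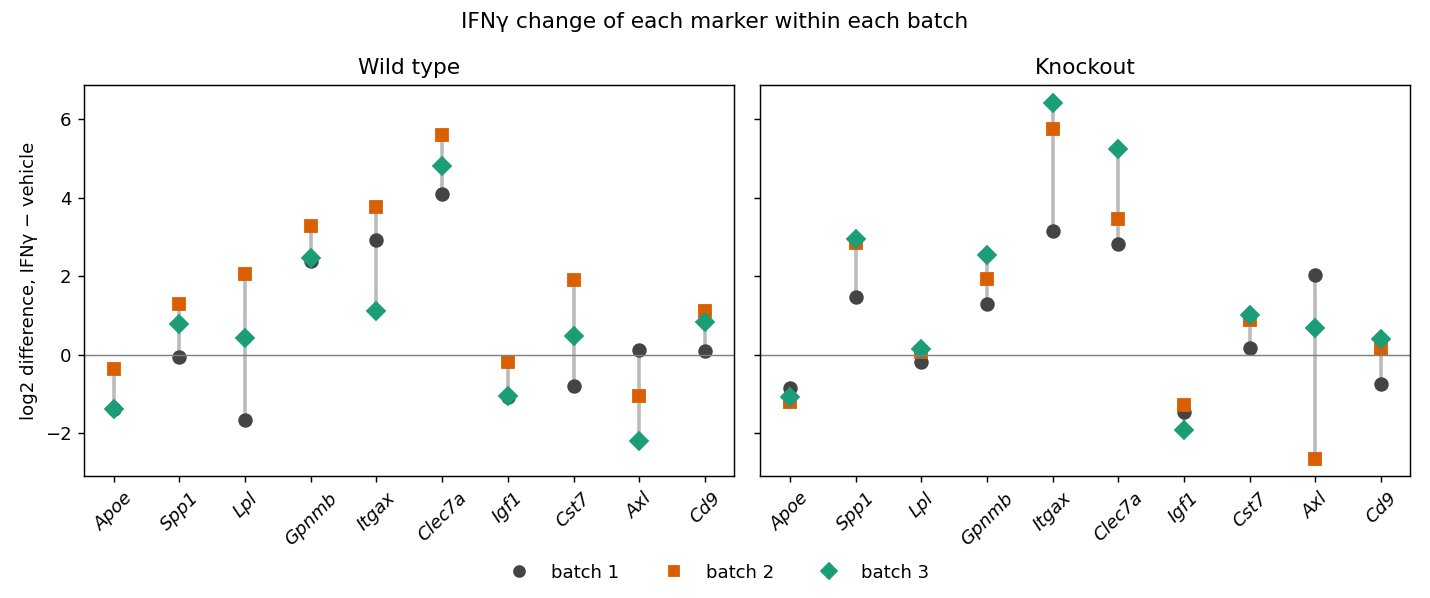
Log2 difference between IFNγ and vehicle (vertical axis) of each marker within batches 1, 2 and 3, in wild-type (left) and knockout cells (right). In wild-type cells Lpl runs from −1.65 to 2.06 and Cst7 from −0.80 to 1.89, while Gpnmb, Clec7a and Itgax stay above 0 and Apoe and Igf1 below 0 in every batch of both lines. The batch 2 value of Axl in knockout cells rests on a library with 0 reads and depends on the prior count.

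Other genes of the disease-associated state were also counted. Of 38 tested members of that list 30 rose and 2 fell with IFNγ in wild-type cells and 29 rose and 2 fell in knockout cells. Of all genes 29.0% rose and 29.9% fell in wild-type and 21.4% and 21.8% in knockout cells. Medians of the list were 1.30 and 0.83 log2 against 0.01 and −0.02 for all genes. In batches 2 and 3 alone the counts of the list were 30 and 3, and 21 and 2. Those of all 14288 genes tested there were 2444 and 2657, and 2185 and 2081. Lgals3, the galectin that binds TREM2, rose by 2.80 ± 0.15 and 1.66 ± 0.14 log2 and the urokinase receptor Plaur by 4.53 ± 0.35 and 3.75 ± 0.34 log2. The proton pump subunit Atp6v0d2 rose by 4.00 ± 0.32 and 3.12 ± 0.31 log2, and the pyrophosphate transporter Ank and the cytokine Mif fell in both lines (Ank at −2.01 ± 0.17 and −1.23 ± 0.16 log2), though the fall of Mif in knockout cells did not pass in batches 2 and 3 alone (−0.27 log2). Between the lines under vehicle 4 of the 38 were higher and 10 lower in knockout cells, beside 12.5% and 14.8% of all genes. Lysozyme (Lyz2) was lower, at −2.06 ± 0.19 log2 and Timp2 at −1.09 ± 0.13 log2, and the transcription factor Bhlhe40 higher by 0.83 ± 0.19 log2. With IFNγ 23 were lower and 1 higher, the latter Ank, where Plin2, Timp2 and Cd74, the invariant chain of antigen presentation, had the smallest p (−2.50 ± 0.22, −1.16 ± 0.13 and −2.30 ± 0.28 log2). In batches 2 and 3 alone the counts of the list were 6 lower under vehicle, and 11 lower and 1 higher with IFNγ. Of all 14288 genes tested there 633 were lower under vehicle, and 1008 lower and 912 higher with IFNγ. The responses differed for 6 of the 38, beside 6.50% of all genes. Plin2, Lgals3, Vegfa and Cd74 had smaller rises in knockout cells (by −2.57 ± 0.30, −1.14 ± 0.20, −1.21 ± 0.23 and −1.77 ± 0.39 log2). Lyz2 had a larger rise (0.93 ± 0.26 log2) and Ank a smaller fall (0.78 ± 0.23 log2). None of these 6 passed in batches 2 and 3 alone (Plin2 −2.62, Lgals3 −0.91, Vegfa −0.96, Cd74 −1.22, Lyz2 0.42 and Ank 1.38 log2), nor did Bhlhe40 under vehicle (0.33 log2). That fit called 121 genes for the difference of responses, against 894 in the reported fit. There all 6 differences kept their sign, those of Plin2 and Ank were no smaller, and the others were smaller. In batch 1 alone 7 of the 38 responses were larger and 23 smaller, beside 4108 and 2988 of 13833 genes tested.

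**Figure D4:**
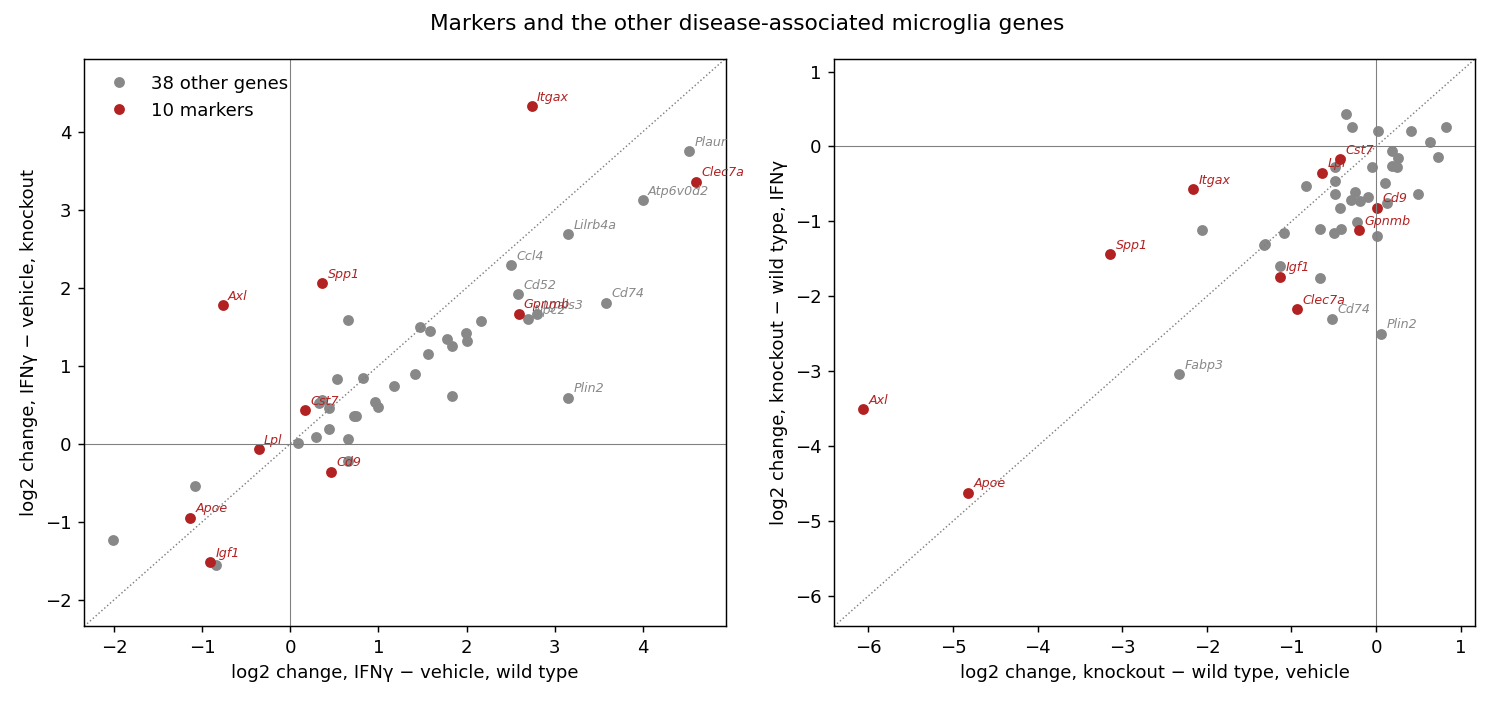
Log2 changes of the 10 markers (red) and the 38 other genes of the disease-associated state (grey): IFNγ against vehicle in wild-type (horizontal) and knockout cells (vertical) on the left, and knockout against wild type under vehicle (horizontal) and with IFNγ (vertical) on the right. The 2 axes of the left panel share no library, nor do those of the right, and the dotted line marks equal values. Most grey points lie right of and above 0 on the left, and Axl, Apoe and Spp1 lie furthest left on the right, at −6.06, −4.82 and −3.14.

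TREM2 signalling genes were present in both lines. Trem2 was higher in knockout cells under vehicle by 0.64 ± 0.15 log2 (178.2 ± 57.4 against 275.0 ± 57.1 CPM, SD, n = 5; adjusted p = 0.0025), and did not pass in batches 2 and 3 alone (0.82 log2, adjusted p = 0.12) or with IFNγ (0.06 ± 0.15 log2, adjusted p = 0.79). IFNγ raised it by 0.65 ± 0.15 log2 in wild-type cells, and Tyrobp rose in both lines (0.96 ± 0.16 and 0.54 ± 0.16 log2). Of 13 tested genes of this pathway 3 were higher and 2 lower in knockout cells under vehicle, and 9 rose and 2 fell with IFNγ in wild-type cells. Of all genes 12.5% were higher and 14.8% lower, and 29.0% rose and 29.9% fell. Of 14 tested homeostatic microglia genes, which the brain state lowers, 8 were lower and 2 higher in knockout cells under vehicle, the former with the fructose transporter Slc2a5 (−7.44 ± 0.31 log2, 201.5 ± 30.0 against 1.21 ± 0.35 CPM), the Fc receptor-like gene Fcrls (−4.22 ± 0.32 log2) and the purinergic receptor P2ry12 (−1.91 ± 0.28 log2). Of all genes 14.8% were lower and 12.5% higher. In batches 2 and 3 alone 3 of the 14 were lower, beside 633 of 14288 genes, and P2ry12 did not pass (−2.11 log2, adjusted p = 0.11). The summed level of the whole list ran from 1707 to 2107 CPM in wild-type and from 1103 to 1473 CPM in knockout vehicle libraries. With IFNγ 7 fell and 2 rose in wild-type cells and 4 fell and 3 rose in knockout cells. Of all genes 29.9% fell and 29.0% rose in wild-type and 21.8% and 21.4% in knockout cells. The fractalkine receptor Cx3cr1 fell, at −6.37 ± 0.43 and −4.73 ± 0.38 log2. Among 18 candidate regulators of the state, Tfeb, a regulator of lysosomal genes, was higher in knockout cells under vehicle (0.95 ± 0.17 log2), but did not pass in batches 2 and 3 alone (0.80 log2, adjusted p = 0.18), and the macrophage factor Spi1 (PU.1) passed in none of the 5 comparisons.

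Compared per kilobase of exon, Spp1 was the highest marker and Axl the lowest in all 4 groups. Under vehicle wild-type cells had Spp1 at 5445 ± 1760 CPM per kb (SD, n = 5), Apoe at 875.8 ± 228.2, Gpnmb at 582.5 ± 215.4 and Lpl at 285.8 ± 143.6. The SD of Gpnmb overlapped those of Apoe and Lpl, but within each library Apoe lay above Gpnmb and Gpnmb above Lpl. Itgax and Axl, at 6.51 ± 5.37 and 5.04 ± 4.85 CPM per kb, had overlapping SDs as well, with Itgax the higher in each library. In knockout cells under vehicle Spp1 (627.0 ± 216.0) and Gpnmb (485.6 ± 124.9) had overlapping SDs, with Spp1 the higher in each library. Apoe came sixth in that group at 31.1 ± 8.09 CPM per kb, after Cst7 at 41.7 ± 7.25. Their SDs overlapped, and Apoe lay above Cst7 in the library of batch 2 (37.0 against 31.3) and below it in the others. With IFNγ Clec7a moved from place 8 to place 3 in wild-type cells, at 495.0 ± 253.4 CPM per kb, and Apoe at 418.3 ± 232.5 overlapped it. Clec7a was above Apoe in each of these libraries except replicate 3. Spp1 (8413 ± 5960) and Gpnmb (3788 ± 2412) had overlapping SDs there too, with Spp1 the higher in each library. In knockout cells with IFNγ Spp1 (3334 ± 2827) and Gpnmb (1744 ± 1072) led, with overlapping SDs and Spp1 the higher in each library. Apoe came eighth in that group, at 15.7 ± 2.62 CPM per kb.

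Over the 20 libraries, which share batch, line and treatment, the level of the markers followed each other in part. Pearson's r of log2 CPM was 0.92 for Gpnmb and Clec7a, 0.91 for Gpnmb and Itgax, 0.88 for Itgax and Clec7a and 0.90 for Apoe and Axl, and Apoe and Gpnmb stood at 0.13. The tested genes most like each marker were Klk8, Rras2 and Afap1 for Apoe (0.98 each), Lrpap1 and Gpr137b for Gpnmb and Il4ra and Kitl for Clec7a (0.99 each), F5 for Axl (0.97), Hgsnat for Spp1, Cdc42ep2 for Itgax and Srsf10 for Igf1 (0.96 each), Mipol1 for Cd9 (0.93), and Rwdd1 for Lpl and Tmco3 for Cst7 (0.91 each). These values describe the 20 libraries and carry no test.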

How the data were processed

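Poly(A) RNA from 20 libraries of BV-2 cells was sequenced, and the deposited values are raw read counts per Ensembl gene. Per the submitters' processing notes the reads passed through FastQC, Trim Galore and STAR on GRCm39, and the authors also used DESeq2. For tool versions, read counter, strandedness and gene annotation, nothing is given in the sources used here. Overlapping or antisense genes may share counts. Symbols came from a table of Ensembl names that matched 51948 of 56941 identifiers, and 0.482% of counts lay in identifiers without a symbol.

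Genes passing filterByExpr (13755) were fitted with edgeR 4.0.16 in R 4.3.3 (TMM scaling, robust quasi-likelihood test, group and batch terms, 20 libraries, 14 residual degrees of freedom), with Benjamini-Hochberg adjustment over all genes tested and a threshold of 0.05. The biological coefficient of variation was 24.2%. Levels are CPM on TMM-scaled totals. Log2 CPM for values by batch and correlations used a prior count of 2. Lengths per kb are union exon lengths of GENCODE on GRCm38, since no GRCm39 annotation was used.

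The members and gene lists were chosen with earlier results of these data known. All 10 members are named in every comparison, and of each list up to 3 genes called each way with the smallest p and the direct partners of a member. Alternatives were other scalings, filters and tools (limma 3.58.1 voom, DESeq2 1.42.0), no batch term, a replicate block, subsets of batches, only the groups compared and leaving out each library. The test of the response by batch was added after seeing the data. Replicates of a group all differed by more than sampling noise, so none were merged. Chi-square per degree of freedom between libraries of a group was 3.69 to 13.2 within batch 1. It was 33.5 to 390.3 between batch 1 and batch 2 or 3. Whether the libraries of batch 1 are separate cultures is not given. Libraries of batch 1 with the same replicate number did not deviate together (correlations of −0.04 to 0.04), and the libraries were not treated as paired. Intervals and limits for 0 reads cover counting error only. Some items are not reported here.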

Additional observations from a re-analysis of the deposited data

Results flagged for a closer look

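Within the 40 groups of 5 libraries (10 markers in 4 groups), 5 held a library far from the other 4 by Dixon's test at the 95% level. That test takes the 5 libraries as alike, while 3 of each group were of batch 1, so its usual rate of flags does not apply. Lpl in wild-type IFNγ cells had its batch 2 library at 5477 CPM, against 1279 to 1895 CPM in the others. Itgax in the same group had that library at 488.5 CPM, against 109.3 to 162.3 CPM. Clec7a in knockout IFNγ cells had its batch 3 library at 604.8 CPM, against 203.7 to 231.7 CPM. Igf1 had the batch 3 library lowest in both IFNγ groups, at 95.1 CPM in wild-type (the others at 156.0 to 163.7) and 30.7 CPM in knockout cells (43.6 to 49.9). All 5 values come from IFNγ libraries of batches 2 and 3.

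The response to IFNγ differed between the lines for 2 markers by the test of that difference in edgeR's fit. Spp1 responded more in knockout cells, by 1.69 ± 0.34 log2 (adjusted p = 0.0053), and Gpnmb less, by −0.92 ± 0.26 log2 (adjusted p = 0.04). The Spp1 difference had the same sign in all 3 batches, and the Gpnmb difference in 2 of 3. Neither call held in every alternative fit.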

How the results depend on the processing

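Of 28 calls for the 10 markers, 17 held in every one of the 12 alternatives and 20 fits without 1 library. Counts of all genes called moved by over 1.5 times in these settings (counts of the reported fits: 8101, 5937, 3753, 5363 and 894). The IFNγ response gave 5101 in wild-type cells from batches 2 and 3 alone, and 3897 in knockout cells with no batch term. Knockout against wild type under vehicle gave 2318 with no batch term, 8072 in batch 1 alone, 847 in batches 2 and 3 alone and 6224 with only the groups compared. With IFNγ it gave 9580 in batch 1 alone and 1920 in batches 2 and 3 alone. With no batch term it gave 4 markers, beside 3590 of 13755 genes. The difference of responses gave 537 genes with plain library totals, 1480 with DESeq2, 138 with no batch term, 7096 in batch 1 alone, 121 in batches 2 and 3 alone, 1906 without batch 2, 1631 without batch 3 and 542 to 1448 without 1 library. Among the markers it gave 6 with no filter, beside 1290 of 28627 genes. It gave 4 markers with DESeq2, 0 with edgeR and no batch term (5 at an unadjusted p under 0.05), and 9 in batch 1 alone. It gave 1 in batches 2 and 3 alone, 5 without batch 2, 4 without batch 3 and 1 to 5 without 1 library. Fits of batch 1 alone take their spread from libraries of 1 batch. For all of these and the changes of sign below, the cause was not tested.

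With the replicate block, the difference of responses gave 530 genes and 1 marker, Gpnmb being lost (−0.92 log2, adjusted p = 0.08), and the Axl rise in knockout cells was lost (1.74 log2, adjusted p = 0.067). The samples share only a number, and the block changed no other call of a marker.

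Changes of sign were of values that did not pass the test in the reported fit, except Axl in knockout cells. With IFNγ in wild-type cells, Spp1 turned to −0.06 and Axl to 0.10 log2 in batch 1 alone, and Lpl to 1.33 in batches 2 and 3 alone. Cst7 turned to −0.13 with plain totals, −0.01 with voom, −0.81 in batch 1 alone, −0.45 without batch 2 and −0.02 with only the groups compared. In knockout cells, batches 2 and 3 alone gave Lpl 0.09, Axl −0.48 and Cd9 0.27. Under vehicle, Cd9 between the lines was −0.02 with RLE scaling, DESeq2 and only the groups compared, −0.01 with voom, −0.04 with no batch term and −0.22 in batches 2 and 3 alone. With IFNγ between the lines, Lpl was 0.67 in batch 1 alone and 0.29 without batch 2, Itgax 0.24 in batches 2 and 3 alone, and Cst7 0.06 with plain totals, 0.04 with voom, 0.66 in batch 1 alone, 0.43 without batch 2 and 0.05 with only the groups compared. The difference of responses in batches 2 and 3 alone was −0.33 for Apoe, −1.23 for Lpl and −0.36 for Cst7. Leaving out 1 library gave −0.46 to 0.39 for Cst7 with IFNγ in wild-type cells, −0.22 to 0.04 for Lpl with IFNγ in knockout cells, −0.10 to 0.14 for Cd9 under vehicle, and −0.57 to 0.35 for Lpl and −0.38 to 0.47 for Cst7 between the lines with IFNγ.

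Plain library totals moved the median of all genes to −0.21 with IFNγ in wild-type, −0.16 in knockout cells and 0.13 between the lines with IFNγ. Higher against lower calls became 2823 and 4875, 2116 and 3378, and 3025 and 1827, where the reported fits had 3986 and 4115, 2937 and 3000, and 2754 and 2609. In batches 2 and 3 alone the lines under vehicle had 214 higher and 633 lower, and the difference of responses 104 and 17. Axl in knockout cells, at 0 to 55 reads, is the marker that depth limits most.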
